A study of Mus musculus with 6 samples.

Results

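Messenger RNAs for the proteins of the cytosolic ribosome were measured by RNA sequencing in EO771 cells, a mouse mammary tumour line described in the labels as tumor cells. The members were taken by symbol, as genes named Rpl or Rps with a number, Rplp with a number, or Rpsa. S6 kinase genes and entries with "-ps" in the symbol were left out. The rule took 86 of 19832 genes, 51 with large subunit symbols and 35 with small subunit symbols. Of these, 77 encode standard subunits of the ribosome (46 large, 31 small). The other 9 are the paralogues Rpl7l1, Rpl10l, Rpl22l1, Rpl36al, Rpl39l, Rps27l and Rps27rt, the retrogene Rps23rg1, and Rps19bp1, which encodes a partner of the ribosomal protein RPS19 and no subunit.

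The LCN2 group held 3 libraries from cells given recombinant lipocalin-2 (LCN2), a small secreted carrier of iron-bound siderophores, and the control group held 3 libraries from cells without it. The wider study concerns lipocalin-2-positive mast cells of lymph nodes and stemness of cancer cells. Per the labels' protocols, total RNA came from an RNeasy kit and libraries from a SMARTer mRNA kit. The labels give no dose, time, batch or day, nor do they say whether each replicate was its own culture. The p-values therefore rest on differences among these 6 samples that may be technical.

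The ribosome reads mRNA and joins amino acids. Its small subunit decodes the message and its large subunit forms the peptide bond, and each is built from ribosomal RNA and a fixed set of proteins, most of them present once per particle. In mammals most ribosomal protein mRNAs begin with a pyrimidine-rich stretch, the terminal oligopyrimidine tract, through which growth signals sent by the kinase complex mTORC1 and the RNA-binding protein LARP1 control their translation and stability.

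Values were treated as FPKM, which divide fragments by transcript length and library size, so that levels of genes of different length can be compared. Each library summed to between 391569 and 410808 FPKM and the number of reads is unknown. Of 7 matched epithelial markers 6 averaged 1 FPKM or more over the 6 libraries. Krt8 and Krt18 lay between 235 and 769 FPKM, while the adhesion gene Cdh1 stayed at or below 0.209 FPKM. The summed epithelial markers spanned 1292 to 1308 FPKM in LCN2 libraries and 1333 to 1404 FPKM in control libraries. None of 5 matched mast cell markers reached 1 FPKM, and Cpa3, Mcpt4, Tpsb2 and Fcer1a were listed at 0 in every library. The summed leukocyte markers (1 of 3 matched genes averaging 1 FPKM or more, Cd68) spanned 9.54 to 10.3 FPKM in LCN2 and 8.84 to 10.7 FPKM in control libraries. Among them Itgam had 0.706, 0.631 and 0.839 FPKM in LCN2 and 1.34, 1.12 and 1.09 FPKM in control libraries. The summed endothelial markers (0 of 3) reached at most 0.660 FPKM in LCN2 and 0.472 FPKM in control libraries. Fibroblast markers (1 of 3, Pdgfra) summed to 3.57 to 3.92 FPKM in LCN2 and 3.70 to 4.71 FPKM in control libraries. Epithelial markers went both ways: Krt18 (log2 fold change 0.17, limma adjusted p = 0.030) and Cldn4 (1.23, adjusted p = 0.0055) rose, and Krt8 (-0.27, adjusted p = 0.0094) and Krt19 (-0.22, adjusted p = 0.022) fell. Their part in the results below was not tested. Control 2 stood apart for ribosomal protein genes. After scaling between libraries, control 2 held the lowest of the 6 values in 56 of 83 tested members, against 12.6% of all genes tested. Many results below are therefore given with and without it.

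Most ribosomal protein mRNAs of LCN2 libraries lay close to their control level. The test was passed by 4 genes with large subunit symbols, of which 3 encode standard subunits and the other is the paralogue Rpl7l1. Ribosomal protein mRNA made up 13.1%, 12.9% and 13.3% of summed FPKM in LCN2 libraries 1, 2 and 3, against 12.8%, 12.1% and 12.7% in control libraries 1, 2 and 3. The groups did not overlap, and the lowest LCN2 library lay just above the highest control library. The means were 13.1% ± 0.20 in LCN2 and 12.6% ± 0.40 in control (SD, n = 3 each), a difference of 0.54 percentage points. Without control 2 it was 0.31, an alternative chosen after seeing the data, and it lay between 0.44 and 0.67 without each other library in turn. Large subunit mRNAs gave 7.49% ± 0.14 in LCN2 and 7.13% ± 0.30 in control libraries, and small subunit mRNAs 5.60% ± 0.064 in LCN2 and 5.42% ± 0.14 in control libraries. Without control 2 the differences in points were 0.18 for large and 0.12 for small subunit mRNAs, against 0.35 and 0.18 with all 6 libraries. In bulk RNA, a change in mRNA per cell and a change in the mix of cells cannot be told apart.

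**Figure D1:**
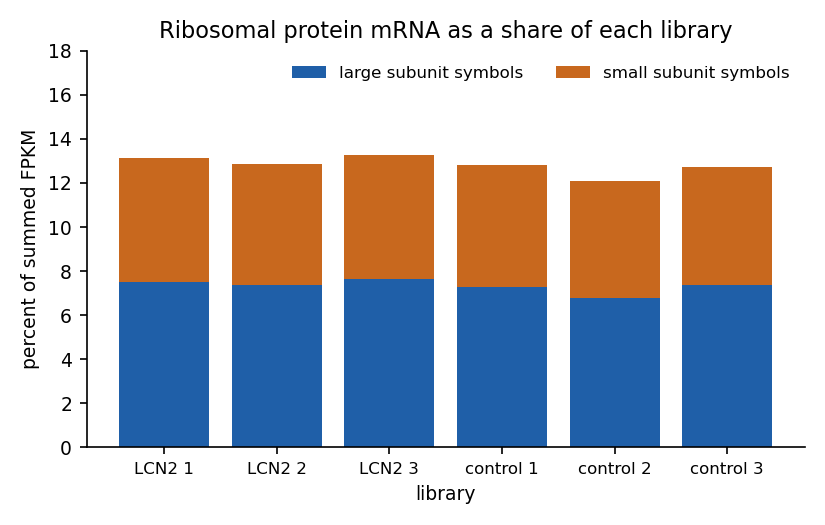
Percent of each library's summed FPKM from large (bottom) and small (top) subunit genes, for 3 LCN2 and 3 control libraries. Totals run from 12.9% to 13.3% in LCN2 and from 12.1% to 12.8% in control libraries, with control 2 the lowest.

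Of the 86 members 83 reached the mean of 1 FPKM required for testing, 49 large and 34 small. The other 3 were Rpl10l and Rpl39l, copies known for expression in testis, both listed at 0 in every library, and the retrogene Rps23rg1, at 0.485, 0.479 and 0.759 FPKM in LCN2 and 0.445, 0.588 and 0.660 FPKM in control libraries. At an adjusted p under 0.05 in limma, adjusted over all 10309 genes tested, 4 of the 83 members were higher with LCN2 and 0 were lower, which is 4.82% of them. Among all genes tested 21.6% passed, 11.7% higher and 9.94% lower. Of the 612 genes averaging 100 FPKM or more, a level reached by 77 members, 30.7% passed, 105 higher and 83 lower. The 4 were all among the 49 genes with large subunit symbols, and 0 of 34 with small subunit symbols passed. Of standard subunit genes alone, 3 of 46 large and 0 of 31 small passed. Rps20, a small subunit gene chosen after its values were seen, just missed the cut (log2 fold change 0.18, limma adjusted p = 0.051). It was called without LCN2 2 and after quantile normalization. At an unadjusted p under 0.05, 13 large subunit genes were higher and 0 lower, and 8 small subunit genes were higher and 1 lower. Of all 10309 genes tested, 2059 were higher and 1971 lower at that level.

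The shift of the members was small and mostly upward. Their median log2 fold change (LCN2 minus control) was 0.09 in each subunit, against -0.00 over all genes tested and 0.03 over genes averaging 100 FPKM or more. Above 0 lay 73 of 83 members, against 49.6% of all genes and 56.5% of those abundant genes. The upward count depended on the scaling between libraries: with values as deposited the members' median was 0.03, that of all genes was -0.06, and 54 of 83 members lay above 0. The distance of the members' median from that of all genes was 0.09 under both. Without control 2 the members' median was 0.05 and 64 of 83 lay above 0. The 95% interval of the log2 fold change stayed within 0.5 of 0 in 71 of 83 members, against 83.7% of all genes. In 65 of 83 members the log2 fold change was within 0.2 of 0, against 7230 of 10309 genes tested. Of genes averaging 100 FPKM or more, 464 of 612 lay within that range. After scaling, the 3 LCN2 values lay above the 3 control values in 30 members and below them in 1. Some of these 30, such as Rpl3 and Rps6, overlap in the values as deposited. The scaled groups did not overlap in 37.3% of members, against 44.5% of all genes and 56.2% of genes averaging 100 FPKM or more. Over all genes 22.7% lay above and 21.7% below in this way.

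**Figure D2:**
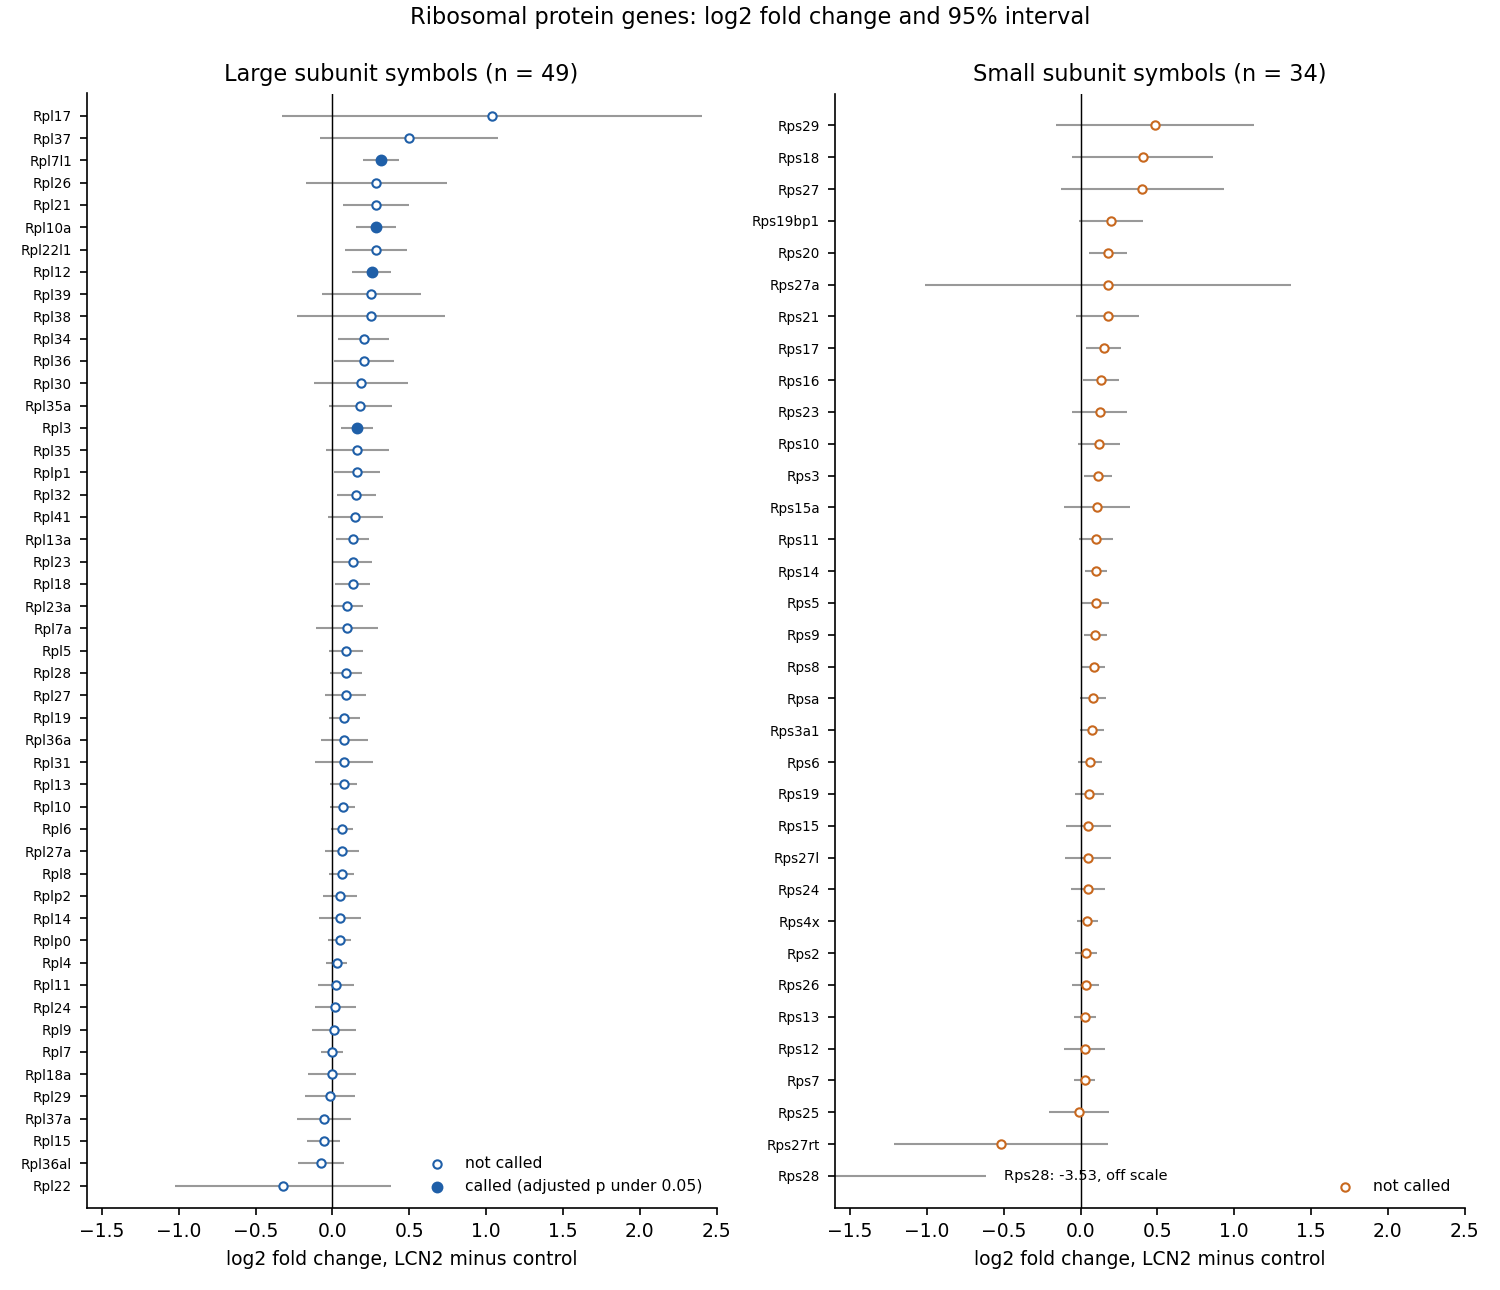
Log2 fold change, LCN2 minus control, with its 95% interval from limma for 49 large subunit (left) and 34 small subunit (right) genes, filled where called. Points gather just right of 0 and the 4 called genes are all in the left panel. Rps28 (-3.53) lies off the axis.

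The 3 called members that had a sequence in the RefSeq promoter table (Rpl3 had none) are shown first, with 3 members described further on that hold a different level in control 2 (Rpl26, Rpl38 and Rps27), to set the letters at the start of the transcript beside the values. Each window runs from 40 bases before the annotated start of transcription to 30 bases after it, so that base 41 is the first of the transcript. Capitals mark CTTTCC or CCGGAAG on either strand; the first is a pyrimidine stretch and the second a form of the site bound by ETS-family transcription factors. Sequences and coordinates are from RefSeq on GRCm38.p6, in which Rpl10a has 2 annotated starts.
Rpl10a, first start, chr17:28328431-28328500, plus strand: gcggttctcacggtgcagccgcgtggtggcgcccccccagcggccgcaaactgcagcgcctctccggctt
Rpl10a, other start, chr17:28328525-28328594, plus strand: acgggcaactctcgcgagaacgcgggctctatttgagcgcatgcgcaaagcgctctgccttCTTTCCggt
Rpl12, chr2:32961672-32961741, plus strand: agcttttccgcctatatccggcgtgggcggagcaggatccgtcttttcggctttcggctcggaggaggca
Rpl7l1, chr17:46782627-46782696, minus strand: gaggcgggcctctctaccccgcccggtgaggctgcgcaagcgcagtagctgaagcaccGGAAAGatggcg
Rpl26, chr11:68901526-68901595, plus strand: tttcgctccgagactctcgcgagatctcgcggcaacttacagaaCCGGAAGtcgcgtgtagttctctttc
Rpl38, chr11:114668540-114668609, plus strand: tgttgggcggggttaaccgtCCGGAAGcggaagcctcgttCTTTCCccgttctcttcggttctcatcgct
Rps27, chr3:90213619-90213688, minus strand: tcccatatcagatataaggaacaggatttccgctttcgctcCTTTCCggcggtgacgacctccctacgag

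In Rpl38 the letters CTTTCC began at base 1 of the transcript, in Rps27 at base 2 and at the other start of Rpl10a at base 22. Rpl12 held neither motif, and Rpl7l1 held CTTTCC only on the opposite strand. Over 300-base windows (250 before the start to 50 after), 66 of 86 members could be matched. CTTTCC was found on either strand in 54.5% of the 66, against 29.3% of 27025 genes with a window, and CCGGAAG in 39.4%, against 9.93%. The TATA-box letters TATAAA were found in 10.6% of members and 15.7% of genes. A run of at least 8 C or T letters on the transcribed strand within 30 bases of the start, which can include CTTTCC, was present in 54.5% of members and 25.8% of genes. CTTTCC and CCGGAAG can share the letters CC. These are matches of letters in a window, which do not show that a factor binds there.

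The member with the smallest p was Rpl7l1, a paralogue of Rpl7 whose protein sits in precursors of the large subunit during assembly. Rpl7l1 had 57.2, 54.7 and 60.1 FPKM in LCN2 libraries 1, 2 and 3, against 47.3, 50.7 and 45.5 FPKM in control libraries 1, 2 and 3. The groups were separate, with LCN2 2 and control 2 nearest to each other. The means were 57.4 ± 2.68 FPKM in LCN2 and 47.8 ± 2.63 FPKM in control (SD, n = 3 each), a log2 fold change of 0.32 (95% interval 0.20 to 0.43, limma adjusted p = 0.010). Leaving out LCN2 1 took the adjusted p to 0.053, and leaving out any other library kept it between 0.0036 and 0.048. Its standard relative Rpl7, a large subunit protein, had 1167, 1131 and 1146 FPKM in LCN2 and 1186, 1235 and 1177 FPKM in control libraries (log2 fold change -0.00, 95% interval -0.07 to 0.07, adjusted p = 0.98).

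Rpl10a encodes uL1, the protein of the mobile L1 stalk near which spent transfer RNA leaves the ribosome. Rpl10a had 239, 221 and 246 FPKM in LCN2 libraries 1, 2 and 3, against 189, 219 and 198 FPKM in control libraries 1, 2 and 3. LCN2 2 and control 2 differed by little, and the other 4 libraries were well apart. The log2 fold change was 0.28 (95% interval 0.15 to 0.41, adjusted p = 0.017). Rpl12 encodes uL11, which lies at the base of the stalk that calls in elongation factors. Rpl12 had 846, 774 and 885 FPKM in LCN2 and 718, 741 and 727 FPKM in control libraries, a log2 fold change of 0.26 (95% interval 0.13 to 0.38, adjusted p = 0.021). All LCN2 values lay above all control values, LCN2 2 being the lowest of its group. Rpl3 encodes uL3, a core protein that reaches towards the peptidyl transferase centre. Rpl3 had 426, 398 and 434 FPKM in LCN2 and 374, 408 and 391 FPKM in control libraries, with means of 420 ± 18.7 FPKM in LCN2 and 391 ± 17.1 FPKM in control libraries. As deposited, LCN2 2 lay below control 2, and the groups separated only after scaling (log2 fold change 0.16, 95% interval 0.06 to 0.27, adjusted p = 0.041).

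**Figure D3:**
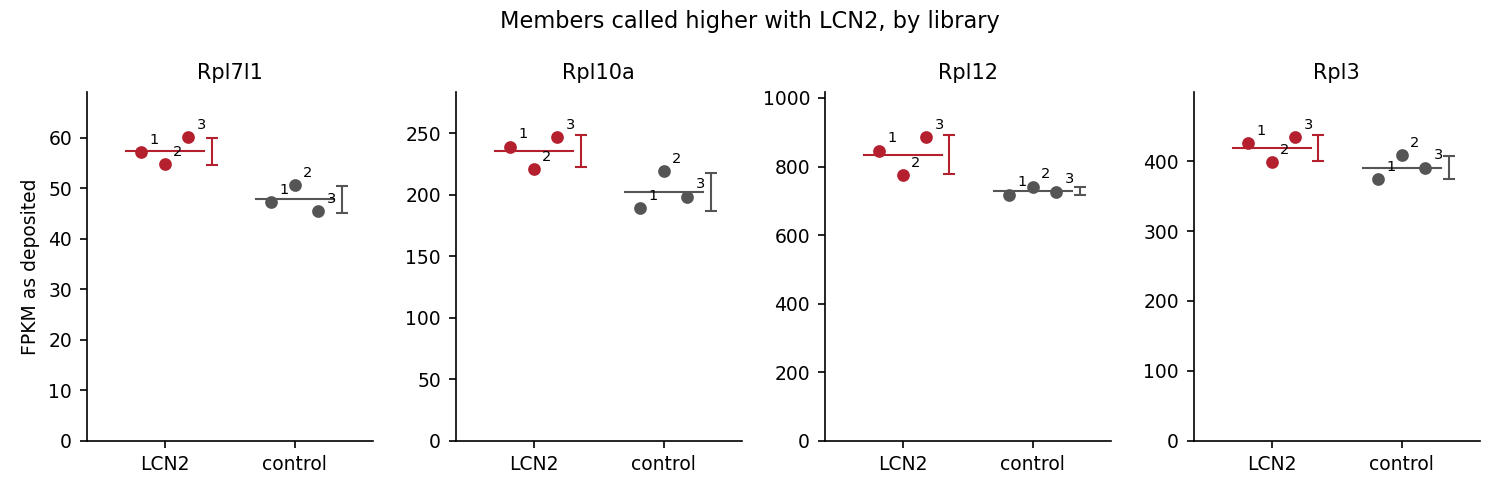
FPKM as deposited of the 4 called members in LCN2 (left) and control (right) libraries, with replicate numbers, group means (lines) and SD (bars, n = 3 each). LCN2 2 is the lowest LCN2 library for all 4 genes, and for Rpl3 it lies below control 2.

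These calls rested on few libraries. Rpl10a and Rpl12 were not called without LCN2 1, LCN2 3, control 1 or control 3, with adjusted p between 0.059 and 0.087. Rpl3 was called only when LCN2 2 was the library left out, its adjusted p being between 0.071 and 0.15 without each other library in turn, and it was 0.17 with values as deposited. Without LCN2 1, limma called 0 members and 2.56% of all genes. At an unadjusted p under 0.05, 8 members were higher and 1 lower in that fit, beside 1493 and 1447 of 10306 genes. Without LCN2 2, 8 large and 5 small subunit genes were higher, and 30.5% of all genes were called. Without LCN2 3, 1 member was higher and 1, Rps28, was lower, beside 4.67% of all genes. Without control 1, 2 were higher (6.27% of all genes), and without control 3, 1 was higher (4.51%). Without control 2, 3 were higher and 1, Rpl37a, was lower (-0.15, adjusted p = 0.026), beside 17.3% of all genes. Rpl37a was chosen after its values were seen. Reads of Rpl10a, Rpl12 and Rpl3 may also come from copies or neighbours. Of the 50-letter stretches in their transcripts, 62.4%, 49.0% and 67.1% also occur in transcripts of other annotated genes, against 7.35% for Rpl7l1. The genes that share them number 5, 14 and 26, against 252 for Rpl7l1. Exons of Rpl12 overlap those of Lrsam1, and exons of Rpl10a overlap those of CT025652.2. How the authors shared out such reads is not given in the sources used here, so these levels are uncertain.

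The most abundant large subunit mRNAs lay near their control level. Rpl41, which encodes the smallest protein of the ribosome, had 2563, 2564 and 2579 FPKM in LCN2 and 2553, 2189 and 2526 FPKM in control libraries (log2 fold change 0.15, 95% interval -0.03 to 0.33). Control 2 was the low value and the other 5 libraries lay close together, and without control 2 the log2 fold change was 0.05. Rplp0, the base protein of the acidic stalk, had 1870, 1845 and 1874 FPKM in LCN2 and 1885, 1921 and 1843 FPKM in control libraries (0.05, 95% interval -0.03 to 0.12). Its partners on that stalk, Rplp1 and Rplp2, gave log2 fold changes of 0.16 (adjusted p = 0.11) and 0.05 (adjusted p = 0.46), that of Rplp1 being 0.08 without control 2. Rpl13a, whose protein silences inflammatory mRNAs when released from the ribosome, had 1368, 1285 and 1382 FPKM in LCN2 and 1290, 1275 and 1279 FPKM in control libraries. As deposited LCN2 2 lay just below control 1, after scaling the groups separated, and the gene did not pass (0.13, 95% interval 0.02 to 0.24, adjusted p = 0.076).

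Genes whose proteins bind the p53 regulator MDM2 outside the ribosome did not pass. Rpl5 and Rpl11, which form a particle with 5S ribosomal RNA, averaged 333 ± 13.4 and 458 ± 7.27 FPKM in LCN2 and 326 ± 13.6 and 471 ± 15.5 FPKM in control libraries. Their log2 fold changes were 0.09 (95% interval -0.02 to 0.20) and 0.02 (-0.09 to 0.14). Rpl23, another MDM2-binding protein, gave 0.13 (0.01 to 0.25, adjusted p = 0.12; 0.07 without control 2), and Rpl10, a late-joining protein beside the peptidyl transferase centre, gave 0.07 (-0.01 to 0.15). Intervals this narrow leave room for changes of up to 0.25 on the log2 scale in these 4 genes. Rpl34, at 34.2 ± 3.13 FPKM in LCN2 and 30.8 ± 1.41 FPKM in control libraries, gave 0.20 (0.04 to 0.37, adjusted p = 0.075).

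Among other paralogues, Rpl22l1 came nearest to a call. Rpl22l1, which in mice is held down by its relative Rpl22, had 128, 111 and 134 FPKM in LCN2 and 108, 101 and 111 FPKM in control libraries (log2 fold change 0.28, 95% interval 0.08 to 0.48, adjusted p = 0.055). It was called without LCN2 2 (adjusted p = 0.011). Rpl22 had 102, 102 and 113 FPKM in LCN2 and 110, 99.9 and 237 FPKM in control libraries. The control group was split, with control 3 far above the other 5 libraries, and its log2 fold change of -0.32 (95% interval -1.02 to 0.38) became 0.08 without control 3 and -0.58 without control 2. Rpl36al and Rpl36a, which encode nearly the same protein, gave log2 fold changes of -0.07 (-0.22 to 0.08) and 0.08 (-0.08 to 0.23), and 85.5% of the 50-letter stretches of Rpl36a occur elsewhere. Rpl39, the standard copy beside Rpl39l, had 142, 135 and 145 FPKM in LCN2 and 137, 98.9 and 137 FPKM in control libraries (0.25, adjusted p = 0.21). The low value was again control 2, without which the log2 fold change was 0.07.

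The most abundant small subunit mRNAs also lay near their control level. The median SE of the log2 fold change was 0.050 over small and 0.057 over large subunit genes. Rps26, whose protein lies at the mRNA exit channel, had 1923, 1894 and 1894 FPKM in LCN2 and 1949, 1922 and 1954 FPKM in control libraries (log2 fold change 0.03, 95% interval -0.06 to 0.12). Rps2, which helps hold the mRNA at the entry channel, had 1871, 1874 and 1924 FPKM in LCN2 and 1872, 2027 and 1881 FPKM in control libraries (0.03, -0.04 to 0.11). For both genes the groups overlapped after scaling. Rps14, lost in a form of myelodysplastic syndrome, had 1608, 1614 and 1634 FPKM in LCN2 and 1521, 1634 and 1576 FPKM in control libraries. After scaling its groups separated (0.10, 95% interval 0.03 to 0.17, adjusted p = 0.056). It was called without LCN2 2 (adjusted p = 0.049) and after quantile normalization (adjusted p = 0.015).

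Rps6, the substrate of S6 kinase below mTORC1, had 736, 717 and 748 FPKM in LCN2 and 718, 765 and 720 FPKM in control libraries (log2 fold change 0.06, 95% interval -0.02 to 0.14). Rps3, which also has a DNA-repair activity and is known as a partner of NF-kB, gave 0.11 (0.02 to 0.20, adjusted p = 0.077). Rpsa, the laminin-receptor precursor at the subunit's surface, gave 0.08 (-0.00 to 0.16), and Rps4x gave 0.04 (-0.03 to 0.11). Rps19, the gene most often mutated in Diamond-Blackfan anaemia, gave 0.06 (-0.04 to 0.15), and Rps7 gave 0.03 (-0.04 to 0.10). Rps25, which viral entry sites need for initiation, gave -0.01 (-0.21 to 0.18). With values as deposited the log2 fold changes of Rps6, Rps4x, Rps19, Rps7, Rps2 and Rps26 were below 0. Rps27l, the p53-responsive paralogue of Rps27, had 154, 158 and 148 FPKM in LCN2 and 163, 146 and 155 FPKM in control libraries (0.05, -0.10 to 0.20). Rps19bp1 had 24.4, 21.2 and 24.0 FPKM in LCN2 and 22.5, 22.3 and 18.2 FPKM in control libraries (0.20, -0.01 to 0.40, adjusted p = 0.14; 0.12 without control 3, its low library).

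Some members varied far more between replicates than the rest. Of those described next, Rps28, Rpl17, Rps18, Rpl37 and Rps29 owe their place to values already seen, not to the rule for named genes. The highest value exceeded 1.5 times the lowest within at least 1 group in 11 of 83 members (13.3%), against 8.33% of genes tested with no value at 0 and 3.59% of genes averaging 100 FPKM or more. Rps28, a small protein at the mRNA exit site, had 0.686, 20.4 and 92.8 FPKM in LCN2 libraries 1, 2 and 3, against 214, 219 and 123 FPKM in control libraries 1, 2 and 3. All LCN2 values lay below all control values, but LCN2 3 and control 3 were close to each other while LCN2 1 was near 0. The log2 fold change was -3.53 with a 95% interval of -6.44 to -0.62, and the gene did not pass (adjusted p = 0.079). It was -1.95 without LCN2 1 (adjusted p = 0.098) and -4.86 without LCN2 3, the only fit of those that left out 1 library in which Rps28 was called (adjusted p = 0.047). Exons of Rps28 overlap those of Kank3, and 23.2% of its 50-letter stretches occur in other genes.

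Rpl17, a protein at the exit of the peptide tunnel, had 208, 453 and 404 FPKM in LCN2 and 68.6, 181 and 398 FPKM in control libraries (log2 fold change 1.04, 95% interval -0.33 to 2.40). Replicate 3 was near 400 in both groups, and the groups overlapped. The log2 fold change was 0.40 without control 1 and 1.66 without control 3. Rps27a, which encodes ubiquitin fused to a small subunit protein, had 620, 509 and 192 FPKM in LCN2 and 569, 444 and 188 FPKM in control libraries (0.18, -1.01 to 1.37). Replicate 3 was low in both groups, and the log2 fold change ran from -0.28 to 0.69 as each library was left out. Exons of Rps27a overlap those of Clhc1. Rps18, at the head of the small subunit, had 315, 323 and 391 FPKM in LCN2 and 363, 268 and 200 FPKM in control libraries (0.40, -0.06 to 0.87, adjusted p = 0.17). The groups overlapped through control 1, and without control 1 Rps18 was called (0.63, adjusted p = 0.042). Without control 3 its log2 fold change was 0.21. Its transcripts share 60.8% of their 50-letter stretches with Rps18-ps5 and 52.0% with Rps18-ps6, and the sum over the 3 genes was 658, 676 and 753 FPKM in LCN2 and 726, 607 and 529 FPKM in control libraries.

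**Figure D4:**
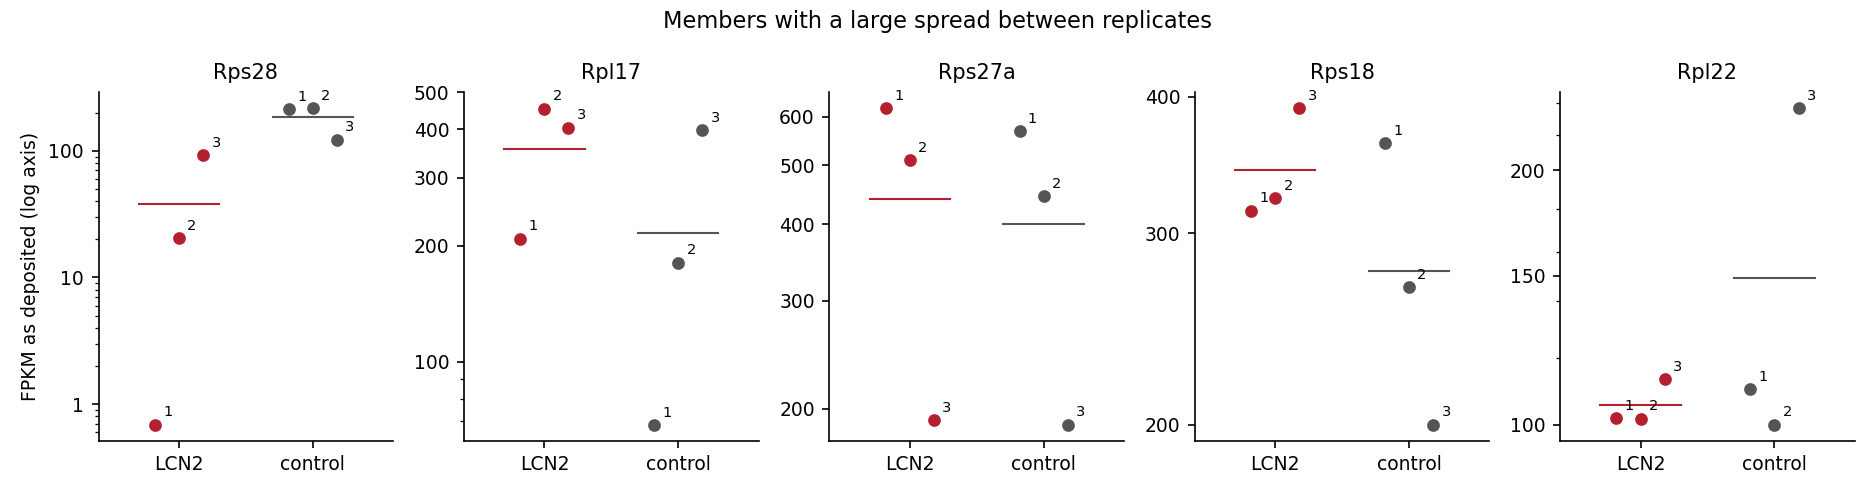
FPKM as deposited on log axes for 5 members with a wide spread between replicates, LCN2 (left) and control (right), with replicate numbers and group means (lines). Rps28 runs from 0.686 to 92.8 in LCN2 and from 123 to 219 in control libraries; the other 4 overlap between groups.

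Rps27 and its retrocopy Rps27rt moved in opposite directions between libraries. Rps27, which carries a zinc finger on the small subunit, had 372, 407 and 390 FPKM in LCN2 and 398, 209 and 349 FPKM in control libraries, so that control 2 was the low value. Rps27rt had 76.2, 46.3 and 56.1 FPKM in LCN2 and 55.0, 136 and 89.7 FPKM in control libraries, and there control 2 was the high value. Of the 50-letter stretches of Rps27rt, 91.1% are also in Rps27, so reads of these genes cannot be cleanly told apart. Their sum was 448, 454 and 446 FPKM in LCN2 and 453, 345 and 438 FPKM in control libraries, in which control 2 remained the low value and the other 5 libraries lay together. Their log2 fold changes were 0.40 (95% interval -0.13 to 0.93) for Rps27 and -0.52 (-1.21 to 0.18) for Rps27rt. Without control 2 they were 0.09 for Rps27 and -0.24 for Rps27rt, and without control 1 that of Rps27rt was -0.84.

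A group of mRNAs was low in control 2 alone. Rps29, another small zinc-finger protein, had 308, 299 and 313 FPKM in LCN2 and 285, 140 and 297 FPKM in control libraries. Rpl37 had 211, 193 and 205 FPKM in LCN2 and 194, 97.6 and 178 FPKM in control libraries. Rpl38, which mouse development needs for patterning of the skeleton, had 284, 263 and 286 FPKM in LCN2 and 297, 171 and 281 FPKM in control libraries. In each of these genes the other 5 libraries stayed within a narrow range. Rpl26, known from human cells to bind p53 mRNA and aid its translation, had 30.05, 30.6 and 29.5 FPKM in LCN2 and 32.6, 18.2 and 27.9 FPKM in control libraries. Their log2 fold changes were 0.49, 0.50, 0.25 and 0.29, with adjusted p of 0.23, 0.18, 0.40 and 0.32. Without control 2 they were 0.10 for Rps29, 0.16 for Rpl37, -0.03 for Rpl38 and 0.02 for Rpl26. Without control 1 they were 0.41 for Rpl38 and 0.47 for Rpl26.

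The drop in control 2 was deepest in short transcripts. The members were split in order of the median length of their annotated coding transcripts, and the deviation of each scaled log2 value from the gene's mean over the 6 libraries was taken. In control 2 the median deviation was -0.17 in the 28 short members (368 to 600 nucleotides), -0.09 in the 27 of middle length (612 to 835) and -0.07 in the 28 long ones (838 to 3706). Control 2 was the lowest of the 6 libraries in 22, 19 and 15 of them. Over all genes tested and split at the same lengths, its median deviations were -0.04, -0.02 and 0.00, so short transcripts in general were low in that library, by less than the short members. The median log2 fold change of the members was 0.13 for short, 0.09 for middle and 0.08 for long transcripts. Without control 2 it was 0.06, 0.04 and 0.05. The part of transcript length in these differences was not tested. In LCN2 3, the library with the highest value in 47 of 83 members, the median deviations were 0.10, 0.08 and 0.07. Over all genes those of LCN2 3 were 0.021, 0.0017 and -0.0019. LCN2 3 was the lowest library in 22.5% of all genes, and the share in which it was the highest was not computed.

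**Figure D5:**
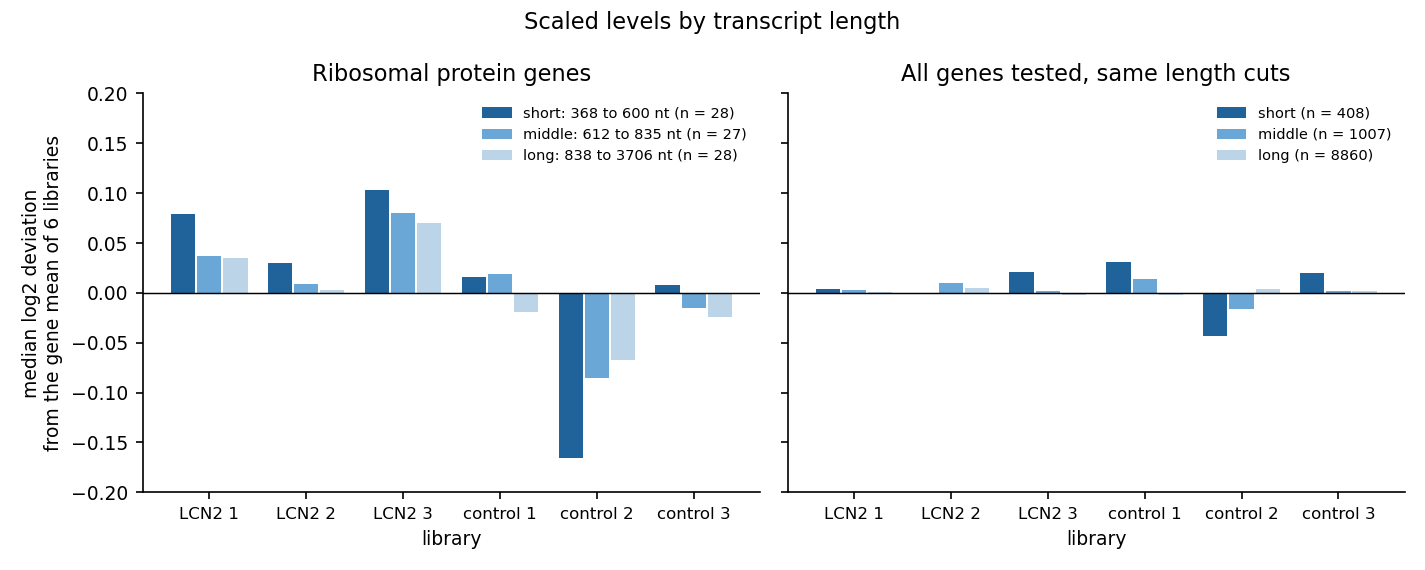
Median deviation of scaled log2(FPKM + 1) from each gene's mean over 6 libraries, for members (left) and all genes tested (right) split at the same transcript lengths. Among members control 2 reaches -0.17 for short transcripts; over all genes its largest deviation is -0.04.

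Rack1 and Fau, subunit genes that the symbol rule misses, were not called. Rack1, a scaffold protein of the small subunit head, had 581, 578 and 596 FPKM in LCN2 and 545, 602 and 556 FPKM in control libraries (log2 fold change 0.11, adjusted p = 0.063). Fau, which encodes a ubiquitin-like protein fused to a small subunit protein, gave 0.07 (adjusted p = 0.19).

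Of 18 other genes whose mRNAs are known to begin with a terminal oligopyrimidine tract, elongation factors among them, 7 rose and 0 fell. That is 38.9% of the list, beside 21.6% of all genes tested (11.7% higher and 9.94% lower). Of genes averaging 100 FPKM or more, as most of the list did, 30.7% were called. The list's median log2 fold change was 0.11. Npm1, a nucleolar chaperone of ribosome assembly, had 1034, 1030 and 1031 FPKM in LCN2 and 943, 945 and 932 FPKM in control libraries (0.20, adjusted p = 0.012). Pabpc1, the poly(A)-binding protein, had 1222, 1225 and 1260 FPKM in LCN2 and 1113, 1156 and 1136 FPKM in control libraries (0.18, adjusted p = 0.014). For both genes the groups were well apart. Eif3e, a subunit of an initiation factor, rose by 0.16, and Tpt1, a growth-related protein, rose by 0.17. The calls depended on the scaling and on single libraries. With values as deposited, where 23.0% of all genes were called, 2 of the 18 were higher and 1 lower. Without LCN2 1, LCN2 3 or control 3, where 2.56%, 4.67% and 4.51% of all genes were called, 0 of the 18 were. Without control 1, control 2 or LCN2 2, where those shares were 6.27%, 17.3% and 30.5%, 2, 5 and 9 of the 18 were higher. The difference between this list and the members was not tested.

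Genes that act on such mRNAs went both ways. Of 19 genes of mTORC1 and LARP1 control 5 rose and 2 fell (36.8% called, beside 21.6% of all genes), with a median of -0.01. Cnbp, a zinc-finger protein that binds these mRNAs near their start, had 471, 419 and 475 FPKM in LCN2 and 340, 378 and 350 FPKM in control libraries, with no overlap (0.41, adjusted p = 0.0069, called whichever library was left out). Eif4ebp1, a repressor of cap-dependent translation that mTORC1 switches off, rose by 0.50 (adjusted p = 0.014), while its relative Eif4ebp2 fell by 0.40 (adjusted p = 0.015) and the mTOR inhibitor Deptor fell by 0.46 (adjusted p = 0.014). These last 3 were not called without LCN2 1, LCN2 3 or control 3, nor Eif4ebp2 without control 1, with adjusted p of up to 0.068. Sesn2 and Ddit4, which like Deptor restrain mTORC1, rose. Sesn2 had 23.5, 16.7 and 24.4 FPKM in LCN2 and 9.16, 16.4 and 10.8 FPKM in control libraries (0.86, adjusted p = 0.025), LCN2 2 and control 2 being nearly level. Ddit4 had 92.2, 73.0 and 88.3 FPKM in LCN2 and 56.2, 63.4 and 67.5 FPKM in control libraries, with separate groups (0.49, adjusted p = 0.019). Rheb, which activates mTORC1, rose by 0.24 (adjusted p = 0.018). These 3 genes were picked with their values known, and were not called without LCN2 1, LCN2 3 or control 1, nor Sesn2 without control 3 (adjusted p of up to 0.094). The rises and falls in this list, to be read beside the all-gene shares of the same fits given for the previous list, were 1 and 0 without LCN2 1 or LCN2 3, 2 and 1 without control 1, 3 and 0 without control 3 and 6 and 3 without LCN2 2, and 5 and 4 with values as deposited.

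A further list held 21 genes that carry or import ribosomal proteins, or that act in assembly or export of the subunits. Of these 5 rose and 1 fell, which is 28.6% of them, beside 21.6% of all genes (2.56% to 30.5% when 1 library was left out). Pdcd2, which carries newly made RPS2, had 15.3, 13.8 and 16.5 FPKM in LCN2 and 8.50, 9.84 and 9.19 FPKM in control libraries (0.73, adjusted p = 0.0040). Its client Rps2 was at 0.03, as given above. Ipo7, an import receptor for ribosomal proteins, had 175, 158 and 176 FPKM in LCN2 and 118, 136 and 126 FPKM in control libraries (0.48, adjusted p = 0.0055). Both genes had separate groups and were called whichever library was left out. Eif6, which keeps unfinished large subunits from joining small ones, rose by 0.29 (adjusted p = 0.021), and Nmd3, the export adaptor of the large subunit, rose by 0.28 (adjusted p = 0.027). Eif6 was called in 2 and Nmd3 in 1 of the 6 fits that left out a library, with adjusted p of up to 0.086. The rises numbered 2 without LCN2 1, LCN2 3, control 1 or control 3, and 3 without control 2 or with values as deposited, and the call of a fall, in a gene chosen after its values were seen (Heatr3, -0.16), was lost without any 1 library.

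Quality control of stalled ribosomes gave 1 rise among 14 genes (7.14%, beside 21.6% of all genes), the collision sensor Zfp598, which had 44.1, 37.9 and 45.3 FPKM in LCN2 and 29.5, 37.8 and 33.0 FPKM in control libraries. LCN2 2 and control 2 were level, and the call (0.40, adjusted p = 0.024) was lost without LCN2 1, LCN2 3, control 1 or control 3 (adjusted p of up to 0.093). Proteins of the mitochondrial ribosome, a separate particle, gave 2 rises and 10 falls among 78 genes and a median of -0.07. In all 15.4% of them were called, beside 21.6% of all genes. Mrpl3 had 18.1, 18.6 and 17.3 FPKM in LCN2 and 23.8, 26.1 and 25.6 FPKM in control libraries (-0.40, adjusted p = 0.0055), the groups were separate, and it was called whichever library was left out. Mrpl40 fell by 0.52 and Mrps11 fell by 0.27, and Mrps31 rose by 0.37. The falls numbered 21 with values as deposited (23.0% of all genes called), 8 without control 2 (17.3%), 16 without LCN2 2 (30.5%) and between 1 and 3 without each other library (2.56% to 6.27%). Mrps31 was not called without LCN2 1 or control 3, and Mrpl40 and Mrps11 were not called without LCN2 1, control 1 or control 3 (adjusted p of up to 0.075). Whether the mitochondrial and cytosolic sets differ was not tested.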

How the data were processed

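The authors deposited 1 table of 19832 genes in 6 libraries whose name describes raw counts. Because 0% of its values above 0 were whole (tolerance 1e-9), the deposited values were treated as FPKM, a unit inferred from the values: weighted by the longest annotated transcript in kilobases, each library summed to between 943492 and 1001780. The genome build was GRCm38, per the submitters' processing notes. Aligner, quantifier and use of strand: not given in the sources used here. Reads per library are unknown, since ratios between libraries did not repeat among low genes (the commonest, with a log2 tolerance of 0.002, held 3 to 4 of 411 to 448 genes), and no counting interval or floor is given.

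Libraries were scaled by unweighted TMM (trimmed mean of M-values, trimming 0.3 of ratios and 0.05 of levels). limma 3.58.1 in R 4.3.3 was fitted on log2(FPKM + 1) with a variance trend to the 10309 genes averaging 1 FPKM or more across the 6 libraries. A two-sided p under 0.05 after Benjamini-Hochberg adjustment over all genes tested made a call, and every adjusted p is from limma. Fold changes are LCN2 minus control on this log2 scale, which understates changes of low genes. The fit was also run on simulated data, in which noise was drawn independently for each gene and library. That run cannot show how single libraries move the calls. Values per library and means are FPKM as deposited.

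The members and the gene lists were chosen with earlier results of these data known. Genes were named by a rule: in each subunit the called members with the largest changes or the smallest p, the 3 highest and 3 lowest, the paralogues with their standard copies, members with well-known roles, and in each list up to 4 called genes. Lengths, exon overlaps and shared 50-letter stretches are from GENCODE M21. Alternatives were other scalings, pseudocounts and filters, no variance trend, a replicate block, and leaving out each library, the last added for the summed share after seeing the data. A gene that the rule takes is not reported here.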

Additional observations from a re-analysis of the deposited data

How the results depend on the processing

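Over the 10309 genes 1204 were called higher and 1025 lower; with values as deposited 693 were higher and 1680 lower. All calls numbered 2229, against 1476 with no filter, 237 with a replicate block, and 264 to 3147 when 1 library was left out. Large subunit genes called higher were 4, against 2 with no filter and 1 with the replicate block, and ranged from 0 to 8 when 1 library was left out; those called lower ranged from 0 to 1. Small subunit genes called higher were 0, against 3 after quantile normalization, where 10.8% of all genes were higher. They ranged from 0 to 5 when 1 library was left out, and those called lower ranged from 0 to 1. The small subunit median was 0.030 with values as deposited and 0.043 after quantile normalization. The share of summed FPKM differed by 0.58 percentage points without mitochondrially encoded mRNAs and by 0.53 without Rps19bp1 and the paralogues Rpl7l1, Rpl22l1, Rpl36al and Rps27l. Deviations of same-numbered libraries correlated at -0.22, -0.26 and 0.01, which does not settle whether the numbers pair the samples. Under the replicate block Rpl22l1 (limma adjusted p = 0.044) was the only member called. Among the 42 named members, signs changed only in those not called. As deposited, log2 fold changes were -0.039 for Rpl11, -0.015 for Rplp0, -0.011 for Rplp2, -0.0034 for Rps19, -0.027 for Rps2, -0.028 for Rps26, -0.012 for Rps27l, -0.019 for Rps4x, -0.00095 for Rps6 and -0.035 for Rps7. Scaled to column sums, Rpl11 gave -0.0046 and Rps7 -0.00063, and after quantile normalization Rplp0 gave -0.0043. With 1 library left out, the lowest and highest values of members that changed sign were -0.035 and 0.056 for Rpl11, -0.58 and 0.081 for Rpl22, -0.029 and 0.41 for Rpl38, -0.018 and 0.015 for Rpl7, -0.10 and 0.053 for Rps25, -0.0055 and 0.051 for Rps26, -0.28 and 0.69 for Rps27a and -0.025 and 0.10 for Rps27l. The causes were not tested. A pseudocount of 0.1, median-ratio scaling and a filter at a mean of 0.1 FPKM changed the sign or call of 0 of the 42 named members.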

Other observations

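Entries with "-ps" in the symbol, 7 in number, were kept out of the members and give a view of how reads fell on near-identical copies. Rps18-ps6 had 166, 176 and 186 FPKM in LCN2 and 182, 153 and 143 FPKM in control libraries, the same low values in control 2 and control 3 as in Rps18. Rps18-ps5 had 177, 178 and 176 FPKM in LCN2 and 181, 186 and 186 FPKM in control libraries, and so did not share them. Rpl9-ps6 averaged 93.0 ± 2.45 FPKM in LCN2 and 93.8 ± 4.61 FPKM in control libraries, and Rpl10-ps3 averaged 24.8 ± 0.713 FPKM in LCN2 and 25.5 ± 0.484 FPKM in control libraries (SD, n = 3 each). Rpl36a-ps1 averaged 2.18 FPKM in LCN2 and 1.99 FPKM in control libraries, and Rpl9-ps1 and Rpl36-ps4 were listed at 0 in every library. None of the 5 tested entries was called (limma adjusted p between 0.15 and 0.95).

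Over all 86 members a median of 34.0% of 50-letter stretches also occurred in transcripts of other annotated genes. For 23 members the share was over 50%, and for 3 it was 0. Exons of 24 members overlap those of another gene. The 11 members whose values spread by more than 1.5 times within a group had shares between 5.16% (Rpl22) and 91.1% (Rps27rt), and Rpl36 (81.1%) and Rpl24 (81.7%) had high shares without such a spread.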
